A study of Homo sapiens with 12 samples.

Results

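The genes described here are 10 chaperones and stress-response genes of the endoplasmic reticulum (ER): HSPA5, HSP90B1, PDIA4, PDIA6, CALR, DNAJB9, XBP1, HERPUD1, SDF2L1 and CRELD2. They were chosen by name out of 57865 genes, and all 10 had enough counts to be tested. The choice rested in part on measured values, since HSPA5 and HSP90B1 had been noted as lower with darglitazone than with DMSO. Values of that comparison are therefore given for these genes as a description, with no test.

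Bulk RNA was sequenced from the human acute myeloid leukaemia (AML) lines OCI-AML3, MV4-11, MOLM-14 and KG-1a, named in this order below where values of all 4 lines are given. Each line was kept for 12 h with the solvent DMSO, with pioglitazone at 10 µM or with darglitazone at 10 µM, and gave 1 library per treatment (12 libraries). The cell line is thus the replicate of a treatment (n = 4), a response within 1 line has no replicate check, and p-values measure only the spread between these libraries. Pioglitazone and darglitazone are thiazolidinediones, ligands of the nuclear receptor PPARγ. They share the thiazolidinedione head and differ in the rest of the molecule, where pioglitazone carries a pyridine ring joined through an ether and darglitazone a phenyl-substituted oxazole joined through a ketone.

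Secreted and membrane proteins fold in the ER with the help of chaperones. When unfolded proteins accumulate there, 3 sensors of the ER membrane start the unfolded protein response. IRE1 (gene ERN1) cuts a short intron out of the XBP1 messenger RNA, which then encodes an active transcription factor. ATF6 travels to the Golgi and is cut into another one, and PERK (gene EIF2AK3) slows translation and favours that of ATF4. XBP1 and ATF6 are known to raise the chaperones described here, many of them through a promoter motif called the ER stress response element (ERSE), in which a CCAAT box and a CCACG box lie a fixed distance apart.

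The libraries held between 1.1 and 64.23 M (mega-counts) of estimated counts, and the shallowest was OCI-AML3 with pioglitazone. An entry derived from ribosomal RNA, FP671120.3, took 6.175% of that library and 23.537% of the KG-1a pioglitazone library, against at most 0.145% of any DMSO library. Genes specific to another line were read in some libraries. Relative to the level in their own line, the median of 6 genes specific to MV4-11 reached 3.94% in KG-1a with darglitazone, that of 76 genes of KG-1a 1.85% in OCI-AML3 with pioglitazone, and those of 5 genes of MOLM-14 and 12 of OCI-AML3 1.96% and 1.42% in MV4-11 with DMSO. Values fitted with pioglitazone are also given without its OCI-AML3 and KG-1a libraries, for the gene lists as counts and medians. All 12 genes listed as myeloid markers reached 1 CPM (counts scaled to the library total) in some library. CD33, SPI1 and the general leukocyte gene PTPRC were present in all 12 libraries. CD14 was at 0 in 6 libraries, ANPEP in 3 and CSF1R in 1, and MPO ran from 1.41 to 64.8 CPM. CD34 reached 715 CPM in KG-1a, a line of immature CD34-positive cells, and at most 7.9 CPM elsewhere. PROM1, another progenitor marker, reached at most 0.101 CPM. Markers of other cell types were read too, such as PAX5 of B cells with up to 65.3 CPM in MOLM-14 and ITGA2B of megakaryocytes with up to 304 CPM in KG-1a. Plasma cells express the ER chaperones at high levels, and 6 of 9 of their markers reached 1 CPM in some library: IRF4 with 38.3 CPM in MV4-11, PRDM1 with 9.89 in OCI-AML3, MZB1 with 8.06 in KG-1a, IGKC with 5 in MV4-11, JCHAIN with 2.38 in KG-1a and SDC1 with 1.34 in MV4-11. The 9 markers summed to 3.51 to 10.1 CPM in OCI-AML3, 29.4 to 49.7 in MV4-11, 5.13 to 5.6 in MOLM-14 and 8.37 to 11.1 in KG-1a. IGHG1 was at 0 in all 12 libraries, and TNFRSF17 and TNFRSF13B reached at most 0.061 and 0.107 CPM. The part of such markers in the differences between lines was not tested. Only RNA from whole cultures was measured, so a lower level in every cell and a change in fewer cells cannot be told apart.

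The ERSE was searched as CCAAT and CCACG with 9 free bases between them, on both strands, in the RefSeq promoter windows, which reach from 250 bases before a gene's start to 50 after it (GRCh38.p14). It was present in 27 of 35114 windows (0.0769%) and in 6 of the 13 windows of the 10 genes. These windows belong to 6 genes: HSPA5, HSP90B1, PDIA6, CALR, XBP1 and CRELD2. Its matches in these 6 are shown here because the motif is known as a binding site of ATF6 and XBP1 in chaperone promoters. Since the 10 genes were chosen by name from that group, their share beside that of all windows is a description only. The sequences are printed 5′ to 3′ on the strand of the gene, with the CCAAT and CCACG boxes in capitals, which read ATTGG and CGTGG where the motif lies on the other strand.
HSPA5, chr9:125241386-125241414, minus strand: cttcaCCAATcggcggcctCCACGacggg
HSP90B1, chr12:103930211-103930239, plus strand: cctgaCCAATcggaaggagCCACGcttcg
HSP90B1, chr12:103930316-103930344, plus strand: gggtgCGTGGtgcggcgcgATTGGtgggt
PDIA6, chr2:10812848-10812876, minus strand: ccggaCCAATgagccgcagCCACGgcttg
CALR, chr19:12938379-12938407, plus strand: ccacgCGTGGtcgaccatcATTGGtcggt
XBP1, chr22:28800598-28800626, minus strand: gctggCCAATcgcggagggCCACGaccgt
CRELD2, chr22:49918549-49918577, plus strand: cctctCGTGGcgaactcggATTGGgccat
The first base of the motif lay between positions -225 and -52 from the annotated start, at -66 in HSPA5 and at -194 and -89 in HSP90B1, the gene with 2 matches. A second form, ERSE-II, was searched as ATTGG and CCACG with 1 free base between them, on both strands, and was present in 19 windows (0.0541%), among them those of HERPUD1 and SDF2L1. PDIA4 and DNAJB9 held neither form in their windows. The cyclic AMP response core TGACGTCA was found in 649 windows (1.85%) and in 0 of the 13 windows of the 10 genes. A match is a string of letters and was not tested for binding.

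Gene levels were compared per transcript length as TPM (counts per length, scaled to a common total) in the 4 DMSO libraries. CALR, which encodes calreticulin, a chaperone of glycoproteins that also holds calcium, had 1210 ± 296 TPM (mean ± SD, n = 4), a level above 99.3% of tested genes. XBP1 followed with 246 ± 123 TPM, HSP90B1 with 172 ± 89.4, PDIA6 with 153 ± 41.8 and PDIA4 with 81.5 ± 39.2. HSPA5, which encodes BiP, the ER member of the HSP70 family, had 28.4 ± 14.2 TPM and ranked 8 among the 10. DNAJB9, a J-domain cochaperone of BiP, was lowest with 2.36 ± 0.697 TPM. CALR stood above every other member in all 4 lines and DNAJB9 below every other, while the ranges of XBP1, HSP90B1, PDIA6 and PDIA4 overlapped each other.

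**Figure D1:**
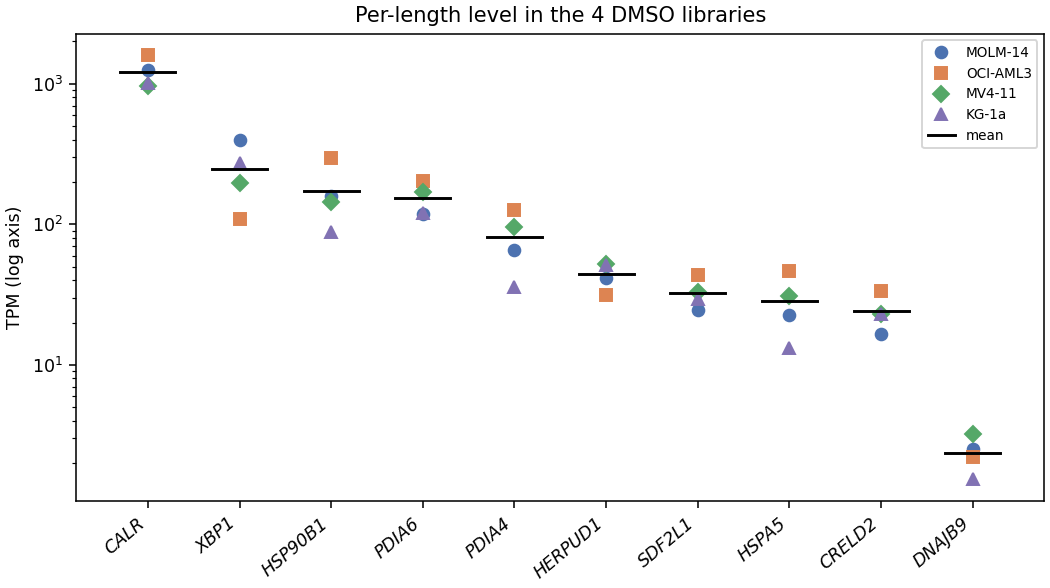
Level per transcript length of the 10 genes in the 4 DMSO libraries, as TPM on a log axis, 1 point per cell line with the mean as a bar. CALR had a mean of 1210 TPM and DNAJB9 one of 2.36 TPM, and XBP1 ran from 110 TPM in OCI-AML3 to 400 TPM in MOLM-14.

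Most of these genes differed between the cell lines. With cell line and treatment in 1 model, edgeR's quasi-likelihood test called 9 of the 10 genes between lines at an adjusted p under 0.05, where 72.6% of all 15424 tested genes were called. SDF2L1 was the exception, with adjusted p = 0.76. The count of 9 is close to the share over all genes. The values below are CPM scaled by TMM, given as the mean ± SD of a line's 3 libraries, each from another treatment. The lines were compared pairwise in the same edgeR fit. In these line tests the 3 libraries stand in as replicates of a line, since no treatment was repeated within a line. Of the 10 genes, 6 passed between OCI-AML3 and MOLM-14 (33.6% of all genes), 6 between MV4-11 and MOLM-14 (37.1%) and 7 between KG-1a and MOLM-14 (52.7%). Against OCI-AML3, 5 passed for MV4-11 (40.7% of all genes) and 7 for KG-1a (51.5%), and 5 passed between KG-1a and MV4-11 (47.4%).

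HSPA5 (chromosome 9, 125234853 to 125241330, minus strand) was highest in OCI-AML3, at 151 ± 42.7 CPM, and lowest in KG-1a, at 42.4 ± 6.03 CPM. MV4-11 had 92.5 ± 11.2 CPM and MOLM-14 71.3 ± 12.3 CPM. OCI-AML3 stood apart from each of the other lines, and the log2 difference of KG-1a from it was -1.80 (95% interval -2.15 to -1.44, edgeR adjusted p = 4.94e-07). MV4-11 and MOLM-14, the neighbours in the middle, did not pass the test against each other (log2 difference 0.38, adjusted p = 0.0696).

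HSP90B1 (chromosome 12, 103930107 to 103953645, plus strand) encodes GRP94, the ER member of the HSP90 family, which folds integrins and Toll-like receptors. It had the same extremes as HSPA5, with 526 ± 166 CPM in OCI-AML3 and 215 ± 21.0 CPM in KG-1a, a log2 difference of -1.26 for KG-1a (edgeR adjusted p = 5.97e-06). MOLM-14, with 370 ± 20.2 CPM, and MV4-11, with 308 ± 16.9 CPM, lay between them and did not pass against each other (adjusted p = 0.176).

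PDIA4 and PDIA6 encode disulfide isomerases, enzymes that form and rearrange the disulfide bonds of proteins in the ER. PDIA4 (chromosome 7, 149003062 to 149028641, minus strand) had 257 ± 59.2 CPM in OCI-AML3 and 86.5 ± 15.7 CPM in KG-1a. The log2 difference of KG-1a from OCI-AML3 was -1.58 (edgeR adjusted p = 7.26e-07), while OCI-AML3 and MV4-11 did not pass against each other (adjusted p = 0.39). PDIA6 (chromosome 2, 10783391 to 10837977, minus strand) spanned less, from 246 ± 12.1 CPM in MOLM-14 to 336 ± 66.5 CPM in OCI-AML3. In PDIA6, KG-1a did not stand apart from MOLM-14 (log2 difference 0.02, 95% interval -0.23 to 0.27, adjusted p = 0.91). The line call of PDIA6 was lost without MOLM-14 (adjusted p = 0.0511) and without KG-1a (0.0565).

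CALR (chromosome 19, 12938578 to 12944489, plus strand) divided the lines differently. OCI-AML3, with 2100 ± 466 CPM, and MOLM-14, with 2010 ± 106 CPM, did not pass against each other (edgeR adjusted p = 0.812). KG-1a, with 1480 ± 266 CPM, and MV4-11, with 1320 ± 158 CPM, did not either (adjusted p = 0.272). The log2 difference of MV4-11 from OCI-AML3 was -0.66 (adjusted p = 0.000365), so that the line with the second highest mean of HSPA5 had the lowest mean of CALR.

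XBP1 (chromosome 22, 28794555 to 28800597, minus strand), the transcription factor itself, ran in another order than HSPA5 and HSP90B1. It was highest in MOLM-14, at 523 ± 27.8 CPM, and lowest in OCI-AML3, at 159 ± 10.5 CPM, the line with the most HSPA5 and HSP90B1. The log2 difference of OCI-AML3 from MOLM-14 was -1.72 (95% interval -2.03 to -1.40, edgeR adjusted p = 5.7e-07). KG-1a, with 338 ± 19 CPM, and MV4-11, with 269 ± 64.9 CPM, stood in between and did not pass against each other (adjusted p = 0.0598).

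The remaining genes were less abundant. HERPUD1 (chromosome 16, 56932048 to 56944863, plus strand), a membrane component of the degradation of ER proteins, was highest in MV4-11, at 47.4 ± 7.20 CPM, against 28.9 ± 7.34 CPM in MOLM-14 (edgeR adjusted p = 0.0153 for that pair). Its line call rested on MV4-11 and was lost without that line (adjusted p = 0.702), without its pioglitazone library (0.219) and without its darglitazone library (0.0984). CRELD2 (chromosome 22, 49918167 to 49927540, plus strand), a secreted protein induced by ER stress, was lowest in MOLM-14, at 17.3 ± 2.10 CPM, and reached 33.7 ± 5.97 CPM in KG-1a (adjusted p = 0.00172 for that pair). Without MOLM-14 its line call was lost (adjusted p = 0.324).

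DNAJB9 (chromosome 7, 108569568 to 108574850, plus strand) had 6.73 ± 2.24 CPM in MV4-11 and 1.62 ± 0.900 CPM in KG-1a (edgeR adjusted p = 0.00372 for that pair). Its KG-1a darglitazone value rests on 4 counts and its OCI-AML3 pioglitazone value on 5. The line call was lost without KG-1a (adjusted p = 0.284), without MV4-11 (0.0551), without the KG-1a pioglitazone library (0.0697) or the KG-1a darglitazone library (0.0653), and without the pioglitazone libraries of OCI-AML3 and KG-1a together (0.0753). DNAJB9 overlaps PNPLA8 and THAP5 on the opposite strand, which had means of 11.9 and 10.9 CPM, and its level is uncertain because the sources used here do not state whether strand was used in counting. SDF2L1 (chromosome 22, 21642261 to 21644298, plus strand), a partner of BiP and its J-domain cochaperones, had line means from 17.8 ± 1.89 CPM in MOLM-14 to 21.4 ± 2.34 CPM in MV4-11. None of its 6 line pairs passed.

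**Figure D2:**
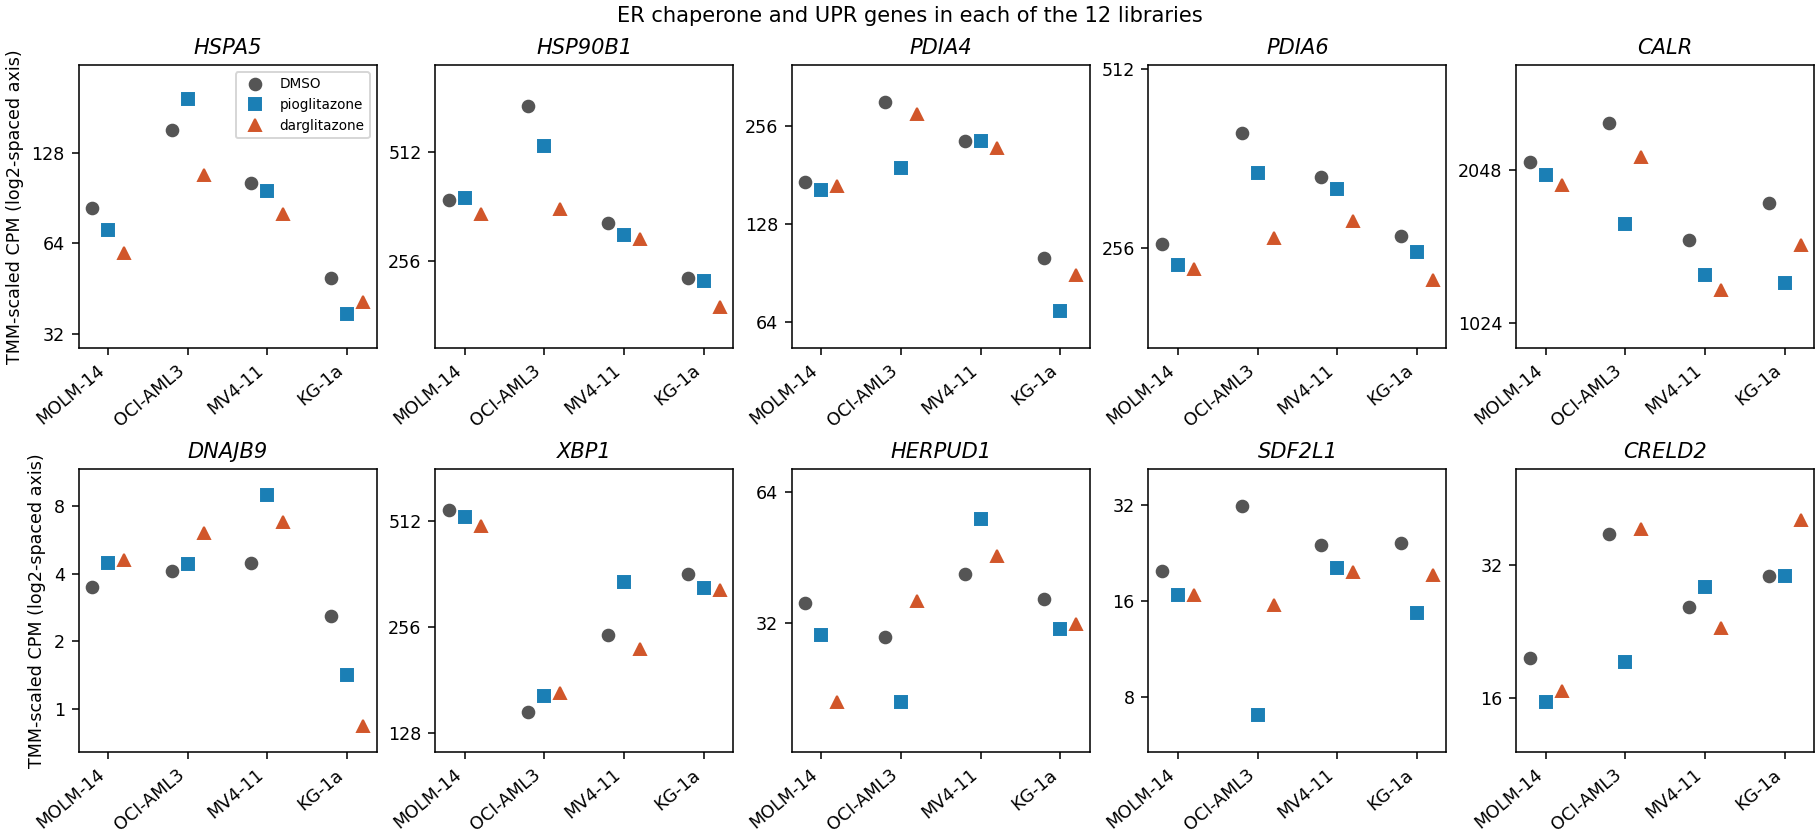
TMM-scaled CPM of the 10 genes in each of the 12 libraries, with log2-spaced axes, cell lines along the x axis and treatments as symbols. HSPA5 ran from 37.4 CPM in a KG-1a library to 193 CPM in an OCI-AML3 library, and XBP1 was lowest in OCI-AML3, where its 3 libraries had 147 to 166 CPM.

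The next comparison asked how the drugs changed these genes against DMSO. With darglitazone, 8 of the 10 genes had a fitted log2 fold change below 0, with a median of -0.182 against 0.005 over all tested genes. Of all genes, 49% were below 0. HSPA5, HSP90B1, PDIA4, PDIA6, CALR and SDF2L1 were lower with darglitazone in all 4 lines, where 7.12% of all genes were. This is the comparison that chose the members, so nothing is read from these shares. edgeR called 0% of all 15424 genes here (525 genes at an unadjusted p under 0.05, and 6 called by DESeq2).

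HSPA5 with DMSO had 153 CPM in OCI-AML3, 102 CPM in MV4-11, 83.9 CPM in MOLM-14 and 49.1 CPM in KG-1a. With darglitazone these lines had 108, 80.0, 59.3 and 40.8 CPM. With pioglitazone they had 193, 95.5, 70.8 and 37.4 CPM. The darglitazone value was below the DMSO value of its own line each time, although the treatment groups overlap because the lines differ. The log2 ratios of darglitazone to DMSO in the same order were -0.51, -0.35, -0.50 and -0.27. The fitted log2 fold change was -0.41 (SE 0.14). Leaving out single libraries or lines gave values from -0.50 to -0.31.

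HSP90B1 with DMSO had 688 CPM in OCI-AML3, 327 CPM in MV4-11, 379 CPM in MOLM-14 and 229 CPM in KG-1a. With darglitazone the values were 357, 294, 346 and 191 CPM. With pioglitazone the values were 532, 303, 383 and 225 CPM. OCI-AML3 stood far above the other lines with DMSO and close to MOLM-14 with darglitazone. The log2 ratio of darglitazone to DMSO was -0.95 in OCI-AML3 and between -0.26 and -0.13 in the other lines. The fitted value of -0.37 (SE 0.13) rested on this line, and was -0.18 without OCI-AML3, -0.24 without its DMSO library and -0.23 without its darglitazone library.

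PDIA6 with DMSO had 399 CPM in OCI-AML3, 337 CPM in MV4-11, 260 CPM in MOLM-14 and 269 CPM in KG-1a. With darglitazone they were 267, 285, 237 and 227 CPM. With pioglitazone they were 343, 322, 240 and 253 CPM. In all 4 lines the values descended from DMSO to pioglitazone to darglitazone. The fitted log2 fold change against DMSO was -0.30 for darglitazone (SE 0.10), and the log2 ratio in OCI-AML3 (-0.58) was the largest in size.

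CALR was lower than with DMSO in all 4 lines with either drug. With DMSO it had 2530 CPM in OCI-AML3, 1490 CPM in MV4-11, 2120 CPM in MOLM-14 and 1760 CPM in KG-1a. Darglitazone gave 2170, 1190, 1910 and 1460 CPM. Pioglitazone gave 1600, 1270, 2000 and 1230 CPM. The darglitazone log2 ratios were the most even among the 6 genes lower in all lines after those of PDIA4, from -0.33 to -0.15, with a fitted value of -0.24 (SE 0.10). The pioglitazone log2 ratios spread wider, from -0.66 in OCI-AML3 and -0.52 in KG-1a to -0.09 in MOLM-14.

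SDF2L1 with DMSO had 31.7 CPM in OCI-AML3, 24.0 CPM in MV4-11, 19.9 CPM in MOLM-14 and 24.2 CPM in KG-1a. Darglitazone gave 15.5, 19.7, 16.7 and 19.3 CPM. Pioglitazone gave 7.02, 20.3, 16.7 and 14.7 CPM. The 4 darglitazone values all lay below the 4 DMSO values, and 1 of the pioglitazone values, that of MV4-11, lay within the DMSO range. The fitted log2 fold change with darglitazone was -0.51 (SE 0.22), and -0.30 without OCI-AML3, whose own log2 ratio was -1.02. Without the OCI-AML3 DMSO library it was -0.23. The lowest value, 7.02 CPM in OCI-AML3 with pioglitazone, rests on 8 counts.

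PDIA4 was lower with darglitazone in all 4 lines by small amounts, with log2 ratios from -0.17 to -0.04 and a fitted value of -0.10. XBP1 had a fitted value of -0.06, HERPUD1 of -0.12 and CRELD2 of 0.01, with lines on either side of 0. DNAJB9 was higher with darglitazone in MOLM-14, OCI-AML3 and MV4-11 by 0.39 to 0.60 on the log2 scale and lower in KG-1a, where the log2 ratio of -1.52 rests on 4 counts. Its fitted value was 0.13 (SE 0.40). The 4 genes without a common direction over the lines were thus XBP1 itself, HERPUD1, CRELD2 and DNAJB9.

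**Figure D3:**
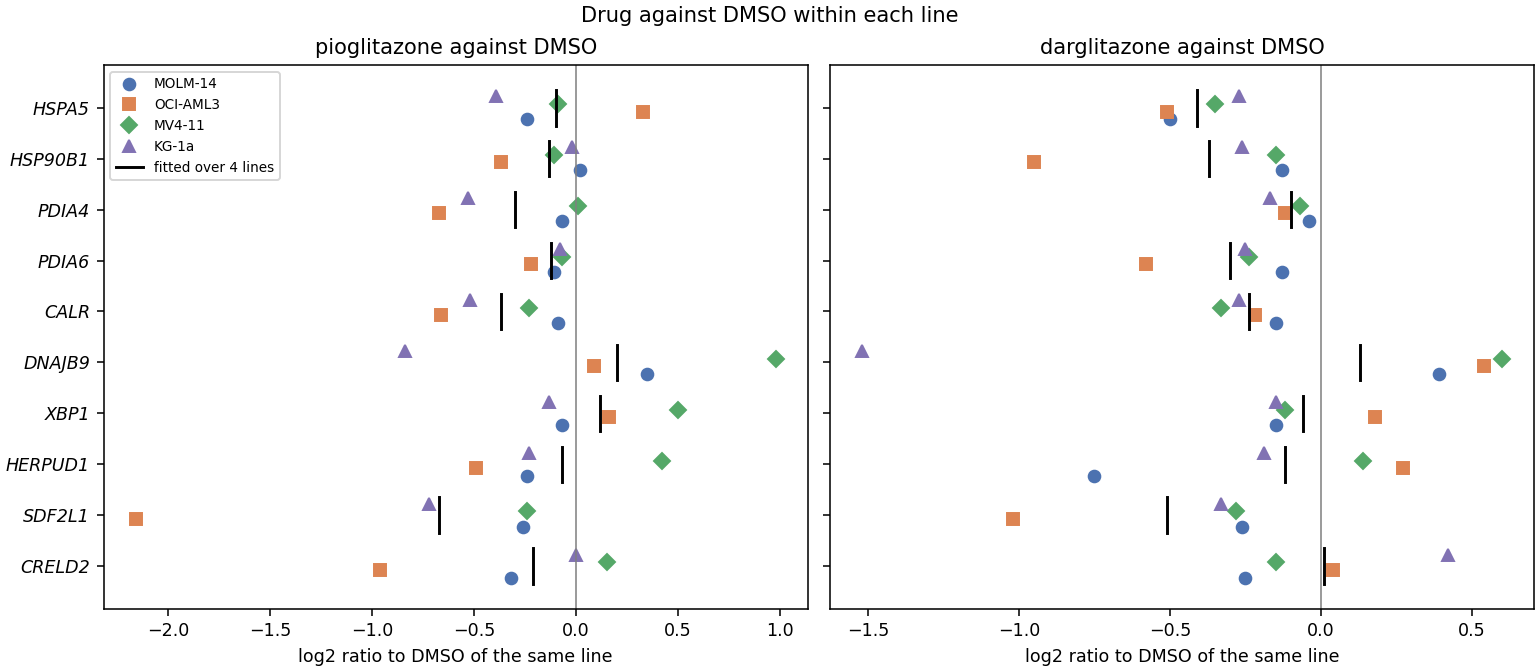
Log2 ratio of each drug to DMSO of the same line for the 10 genes, 1 symbol per line, with the value fitted over the 4 lines as a black bar. With darglitazone the 4 lines of HSPA5 lie between -0.51 and -0.27, while HSP90B1 has OCI-AML3 at -0.95 and the other lines between -0.26 and -0.13.

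With pioglitazone, which shares its DMSO libraries with the previous comparison, 0 of the 10 genes passed edgeR's test, and 0% of all genes did (919 genes, 5.96%, at an unadjusted p under 0.05, and 56 called by DESeq2). Of the 10, 3 had an unadjusted p under 0.05. The 10 genes had a median log2 fold change of -0.127 (-0.10 without the pioglitazone libraries of OCI-AML3 and KG-1a) against -0.024 over all genes, and 8 of 10 were below 0, as were 53.5% of all genes (6 of 10 and 52.7% without those libraries). PDIA6, CALR and SDF2L1 were lower in all 4 lines, where 10.7% of all genes were.

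CALR had the smallest p among the 10, with a fitted change of -0.37 on the log2 scale (SE 0.10, 95% interval -0.58 to -0.15) and an edgeR adjusted p of 0.627. SDF2L1 had -0.67 (SE 0.23, adjusted p = 0.735) and PDIA4 had -0.30 (SE 0.13, adjusted p = 0.822). Each of these values moved when the pioglitazone libraries of OCI-AML3 and KG-1a were left out: CALR then had -0.16, SDF2L1 had -0.36 and PDIA4 had -0.05. The log2 ratios of PDIA4 were -0.67 in OCI-AML3 and -0.53 in KG-1a, against -0.07 in MOLM-14 and 0.01 in MV4-11. The part of the ribosomal RNA share and of the depth of those libraries in these values was not tested.

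HSPA5 with pioglitazone had a fitted log2 fold change of -0.10 (95% interval -0.39 to 0.20, edgeR adjusted p = 0.965). It was higher than with DMSO in OCI-AML3, with a log2 ratio of 0.33 from 220 counts, and lower in the other 3 lines. Without the pioglitazone libraries of OCI-AML3 and KG-1a the fitted values of HSPA5, HSP90B1, XBP1 and PDIA6 were -0.16, -0.16, 0.26 and -0.15. HSP90B1 had -0.13 (95% interval -0.40 to 0.14, adjusted p = 0.941), and 0.01 without the OCI-AML3 DMSO library. XBP1 had 0.12 (adjusted p = 0.947), with MV4-11 at 0.50 and the other lines between -0.13 and 0.16. DNAJB9, HERPUD1 and CRELD2 had 0.20, -0.07 and -0.21, with adjusted p from 0.939 to 0.984 and lines on either side of 0, and 0.51, 0.15 and 0.01 without those libraries.

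The drugs were then compared with each other at the same dose and time, a single pair of compounds. The test shares its darglitazone libraries with the comparison that chose HSPA5 and HSP90B1, so for these genes it is no independent evidence. edgeR called 0 of the 10 genes and 0% of all genes (541 at an unadjusted p under 0.05, and 12 called by DESeq2). Of the 10 genes, 6 were lower with darglitazone than with pioglitazone, as were 45% of all genes, with a median log2 difference of -0.062 against 0.034 over all genes. The sign of this median was not stable: it was -0.20 without the pioglitazone libraries of OCI-AML3 and KG-1a, but 0.14 without the MV4-11 pioglitazone library, 0.07 without the line MV4-11, 0.03 without the KG-1a darglitazone library and 0.07 after thinning to the depth of the shallowest library.

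The difference in HSPA5, darglitazone against pioglitazone, was -0.31 (95% interval -0.61 to -0.02, edgeR adjusted p = 0.98). In single lines it was -0.84 (OCI-AML3), -0.25 (MV4-11), -0.26 (MOLM-14) and 0.13 (KG-1a), and the fitted value was -0.14 without OCI-AML3 and -0.27 without the pioglitazone libraries of OCI-AML3 and KG-1a. HSP90B1 had -0.24 (95% interval -0.51 to 0.03) and PDIA6 -0.18 (95% interval -0.40 to 0.04), both lower with darglitazone in all 4 lines, where 4.62% of all genes were. Without the OCI-AML3 darglitazone library these values were -0.10 and -0.10, and without those pioglitazone libraries -0.23 and -0.18.

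In 4 genes the fitted difference had the other sign: PDIA4 with 0.20 (95% interval -0.07 to 0.47), CRELD2 with 0.22 (-0.19 to 0.62), SDF2L1 with 0.17 (-0.32 to 0.65) and CALR with 0.13 (-0.09 to 0.34). All 4 turned negative when the pioglitazone libraries of OCI-AML3 and KG-1a were left out, to -0.07 in PDIA4, -0.03 in CRELD2, -0.15 in SDF2L1 and -0.10 in CALR. Without them XBP1, HERPUD1 and DNAJB9 had -0.35, -0.30 and -0.35, so that 10 of 10 genes were below 0, beside 50.9% of all genes. Pioglitazone was then left only in MOLM-14 and MV4-11. Every gene had a log2 ratio below 0 in MV4-11. In MOLM-14 the ratio was 0.04 in PDIA4, 0.04 in DNAJB9, 0.07 in CRELD2 and 0 in SDF2L1, and the remaining genes were below 0. DNAJB9 had the widest interval, from -0.94 to 0.79 with all libraries. A p that misses the threshold does not show that the drugs act alike on these genes.

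**Figure D4:**
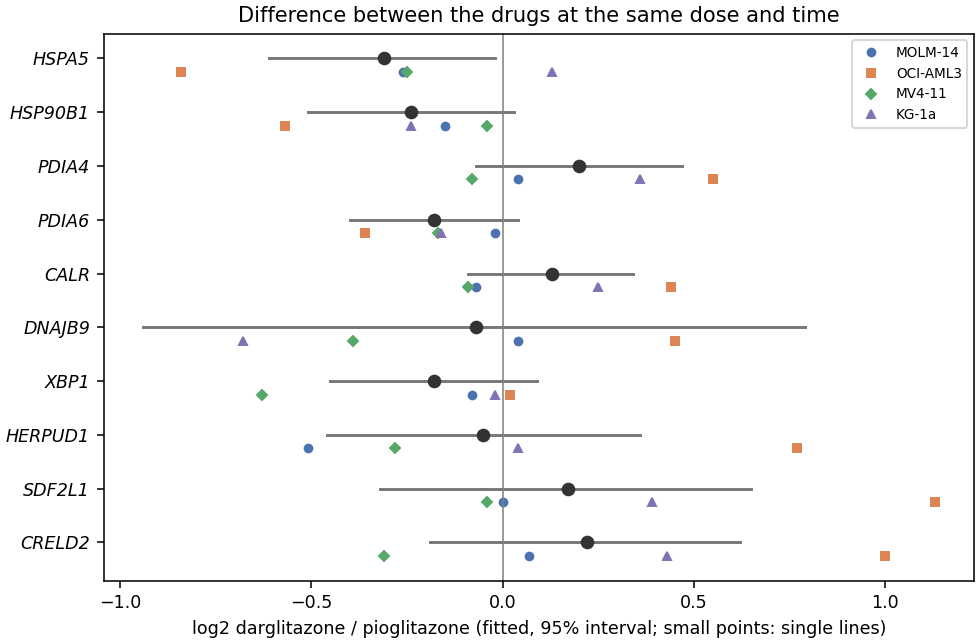
Fitted log2 difference between darglitazone and pioglitazone for the 10 genes, as black points with 95% intervals from the edgeR fit, and the single lines as small coloured points below each. The interval of HSPA5 (-0.61 to -0.02) lies below 0 without passing the adjusted test, and the OCI-AML3 points lie farthest out for 8 of the 10 genes.

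Whether the mean response to both drugs differed between lines was tested with interaction terms of line and either drug against DMSO. Within a line the drugs stand in as replicates of each other. A line's response to 1 drug alone, or opposite responses to the drugs, cannot be read from this test. The test called 0 of the 10 genes, all with an edgeR adjusted p of 1, and 1 of all 15424 genes (0.00648%). At an unadjusted p under 0.05 it had 0 of the 10 and 470 of all genes, and DESeq2 called 65 of all. SDF2L1 had the smallest unadjusted p of the 10 (0.148), followed by HSP90B1 (0.239), and this model leaves 3 residual degrees of freedom.

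XBP1 was also read at the level of its transcripts, because the cut by IRE1 is known to remove 26 bases from its coding sequence. The stretch around this cut is shown from the GENCODE 29 transcripts. Capitals mark the gap as annotated in the spliced transcript with counts (chr22:28796122-28796147, minus strand). Another spliced transcript, without counts, is annotated with the gap at chr22:28796124-28796149. Both placements leave the same spliced sequence, so the capitals do not fix the exact ends of the removed stretch.
unspliced XBP1: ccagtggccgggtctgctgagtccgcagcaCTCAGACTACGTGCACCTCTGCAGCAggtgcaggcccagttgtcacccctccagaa
spliced XBP1: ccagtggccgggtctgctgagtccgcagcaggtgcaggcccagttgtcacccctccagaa
The removal shifts the reading frame, and the spliced messenger encodes the active factor. The deposited table has several XBP1 rows, and the spliced row held a median of 39.4% of all XBP1 counts over the 12 libraries. The rest is every row without the gap. Summed over the libraries it includes 30085.2 counts of the unspliced transcript shown and 8625.1 of another coding transcript. These counts are estimates that divide shared reads between transcripts. The spliced transcript with counts is annotated as shorter, with 1131 bases against 1850 in the unspliced transcript with the most counts. The shares are therefore a description, and their intervals (exact binomial, 95%) cover counting error only.

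With DMSO the spliced share was 22.9% in OCI-AML3 (22 to 23.7), 42.1% in MV4-11 (40.1 to 44.1), 40.6% in MOLM-14 (39.8 to 41.3) and 55.5% in KG-1a (53.8 to 57.2). With pioglitazone the shares were 37.1%, 48.8%, 36.6% and 34.0%. With darglitazone the shares were 38.3%, 52.2%, 37.2% and 45.9%. Both drugs gave a higher share than DMSO in OCI-AML3 and MV4-11 and a lower one in MOLM-14 and KG-1a, and the treatment groups overlap. The OCI-AML3 pioglitazone share has an interval of 30.1% to 44.5% from 186 counts. The DMSO library of OCI-AML3 had the lowest share of all 12 libraries and the most HSP90B1, and that of KG-1a had the highest share with the least HSPA5 and HSP90B1 of the DMSO libraries. This order held with DMSO only. With pioglitazone KG-1a had the lowest share of the lines, and again the least HSPA5 (37.4 CPM) and HSP90B1 (225 CPM). With darglitazone the lowest share was in MOLM-14 and the highest in MV4-11. A relation of the share to chaperone levels was not tested.

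**Figure D5:**
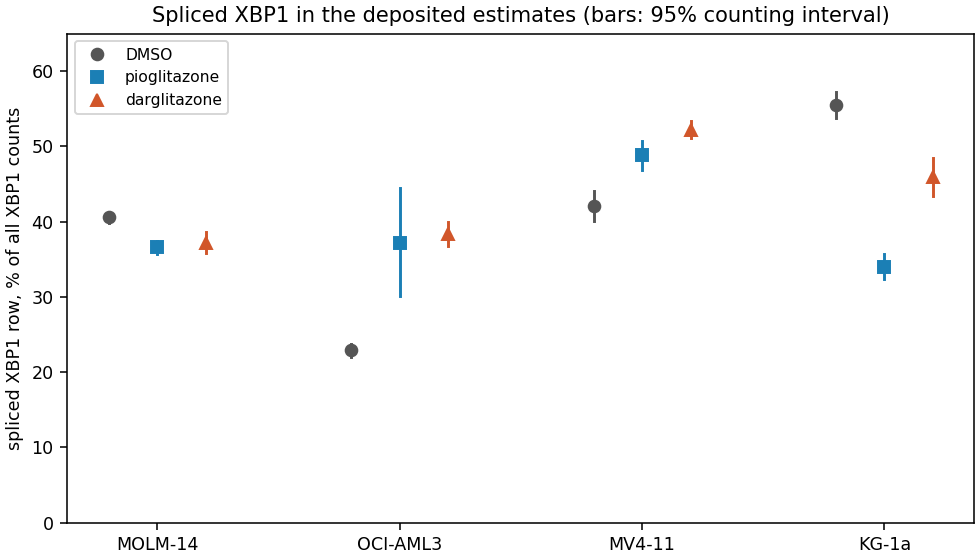
Share of the spliced XBP1 row in all XBP1 counts, in percent, for the 12 libraries by cell line and treatment, with 95% counting intervals as bars. With DMSO the share ran from 22.9% in OCI-AML3 to 55.5% in KG-1a, and the drugs lay above DMSO in OCI-AML3 and MV4-11 and below it in MOLM-14 and KG-1a.

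How the genes moved together within lines was described by correlations of log2 CPM over the 12 libraries, after the mean of each line was removed. The libraries share their line means, depth and treatment, so no p is given. HSP90B1 and PDIA6 had r = 0.95, HSPA5 and PDIA6 0.71, and HSPA5 and HSP90B1 0.62. A second group was PDIA4 with CALR (0.92), CALR with SDF2L1 (0.91) and PDIA4 with SDF2L1 (0.90). Without the pioglitazone libraries of OCI-AML3 and KG-1a (10 libraries) the division between the groups was gone. HSPA5 with CALR went from 0.07 to 0.86 and HSP90B1 with SDF2L1 from 0.35 to 0.96, while SDF2L1 with CRELD2 went from 0.74 to -0.09. HSP90B1 with PDIA6 stayed at 0.95. XBP1 had correlations with the chaperones HSPA5 and HSP90B1 of 0.24 and -0.16, and of 0.21 and -0.16 without those libraries.

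The 8 genes most like HSPA5 by the same measure, out of 7140 compared, had r from 0.896 to 0.972. HSP90AA1, the inducible cytosolic HSP90, ranked 2 with 0.963, behind the ribosomal protein gene RPS26 (0.972). The others were ANP32E, YWHAB, RUNX1, CCDC47, MLXIP and GAMT. Most like the mean of the 10 genes were STING1 (0.97), SNX20, NME1, UBB, MIEF1, PTOV1, RBM4 and SEC61B (0.939), the last a subunit of the channel through which proteins enter the ER. Over the 10 libraries without the pioglitazone libraries of OCI-AML3 and KG-1a, the genes named for HSPA5 had r from 0.821 to 0.951 and ranks from 7 to 139, and those named for the mean r from 0.895 to 0.973, with STING1 again at rank 1.

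Other genes of the pathway were grouped in 11 lists, and edgeR called none of their tested genes in any comparison of drugs, with all libraries or without the pioglitazone libraries of OCI-AML3 and KG-1a. Of all genes, 53.5% were below 0 with pioglitazone (52.7% without those libraries) and 49% with darglitazone. Values in parentheses after a pioglitazone value leave those libraries out. Of 21 tested ER chaperones and cochaperones outside the 10, 15 were below 0 with pioglitazone (11), with a median of -0.09 (0.00), and 13 with darglitazone (median -0.07). With pioglitazone the smallest p in this list were those of PPIB, an ER prolyl isomerase, with -0.32 (-0.15), and DNAJC3, a cochaperone of BiP, with -0.27 (-0.24). DNAJB11, a J-domain partner of BiP, had -0.20 with darglitazone, MANF, a secreted ER-stress protein, -0.26, HYOU1, which exchanges BiP's nucleotide, -0.07, and CANX, the membrane-bound relative of CALR, -0.10. With pioglitazone DNAJB11, MANF, HYOU1 and CANX had -0.01 (0.18), -0.02 (0.13), -0.16 (0.01) and 0.00 (0.05).

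The cytosolic and mitochondrial counterparts were below 0 in 13 of 18 genes with pioglitazone (8), with a median of -0.09 (0.00), and in 14 with darglitazone (-0.04). With darglitazone HSPA8 had -0.22 and HSP90AA1 -0.25, while HSP90AB1 had -0.02 and the mitochondrial HSPA9 and TRAP1 had -0.03 and -0.03. With pioglitazone HSPA4 had -0.28 (-0.15) and TRAP1 -0.18 (-0.14).

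Among disulfide isomerases and ER oxidases, 12 of 21 genes were below 0 with either drug (median -0.03 for each, and -0.02 for pioglitazone without those libraries, with 12 of 23). PRDX4, a peroxiredoxin of the ER, had the smallest p of this list with pioglitazone, at -0.44 (SE 0.13, edgeR adjusted p = 0.636), -0.29 without those libraries, and it had -0.38 with darglitazone. P4HB, the classical disulfide isomerase, had -0.22 with pioglitazone (-0.03) and -0.04 with darglitazone, and PDIA3, which works with CALR on glycoproteins, had -0.15 (-0.10) and -0.19. The translocon genes, which bring new proteins into the ER, were below 0 in 20 of 23 with darglitazone (median -0.12) and in 13 of 23 with pioglitazone (16), with a median of -0.03 (-0.04). There SSR2 and TRAM1 had -0.21 (-0.06) and 0.24 (0.14) with pioglitazone. Genes of N-glycosylation and the calnexin cycle were below 0 in 22 of 24 with darglitazone (median -0.08) and in 17 of 24 with pioglitazone (17), with a median of -0.06 (-0.02). The mannosyltransferase gene ALG1 and the glucosidase gene GANAB had -0.37 (-0.28) and -0.24 (-0.20) with pioglitazone.

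ER-associated degradation had medians of -0.02 with pioglitazone (0.03) and 0.01 with darglitazone, and its genes EDEM1 and AUP1 had 0.45 (0.59) and -0.33 (-0.16) with pioglitazone. ER to Golgi transport had medians of 0.01 (0.01) and -0.04, and its genes COPE and USO1 had -0.26 (-0.02) and 0.25 (0.10) with pioglitazone. ER calcium handling had medians of -0.02 (-0.02) and -0.01, with ITPR1, a calcium channel of the ER, at 0.45 (0.36) and the calcium pump gene ATP2A3 at -0.44 (-0.11) with pioglitazone. Over 8 tested transcripts that IRE1 cuts in other cells the medians were -0.14 (0.15) and 0.10, with SPARC at -1.46 (-0.19) and HGSNAT at 0.22 (0.16) with pioglitazone. Several of these pioglitazone values thus moved toward 0 or across it without those libraries.

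In the PERK and ATF4 branch, 1 of 19 genes was below 0 with pioglitazone and 1 with darglitazone, beside the shares of 53.5% and 49% over all genes. The medians were 0.42 and 0.35, in comparisons that share the DMSO libraries. Without those libraries 0 of 19 were below 0 with pioglitazone (median 0.60). An unadjusted p under 0.05 was found in 4 and 2 of the 19 genes, beside 5.96% and 3.4% of all genes. ATF4 had 0.41 (0.44) and 0.29, its partner DDIT3 (CHOP) had 0.52 (0.68) and 0.94, and ASNS, the asparagine synthetase gene, had 0.85 with pioglitazone (SE 0.21, edgeR adjusted p = 0.559), 0.60 without those libraries, and 0.25 with darglitazone. PSAT1, an enzyme of serine synthesis, had 0.69 (0.54) with pioglitazone. The lines differed in how much these genes varied over the 3 treatments. In the order of lines used here, DDIT3 had 24.3 ± 20.4, 12.5 ± 2.71, 19.6 ± 0.805 and 4.94 ± 2.33 CPM (mean ± SD). ASNS had 104 ± 56.1, 23.5 ± 9.13, 41.9 ± 2.43 and 10.4 ± 3.63 CPM. The spread was thus widest in OCI-AML3 and small in MOLM-14, and whether the lines shared the fitted changes was not tested. Of the sensors and their proteases, 5 of 11 genes were below 0 with pioglitazone (6) and 8 with darglitazone. The sensor gene EIF2AK3 had 0.49 (0.41) and 0.40, ERN1 had 0.05 (0.41) and 0.42, ATF6 had -0.02 (-0.14) and -0.02, and RTCB, the ligase that joins the cut XBP1, had -0.21 (-0.13) with pioglitazone.

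Between lines, 16 of the 21 other chaperones (76.2%) and 17 of the 19 PERK and ATF4 genes (89.5%) were called, beside 72.6% of all genes. ERN1, which encodes the enzyme that splices XBP1, had a mean of 36.5 CPM in MV4-11 and of 6.57 CPM in KG-1a (edgeR adjusted p = 1.68e-05 for the line test). DNAJB11 and MANF were highest in OCI-AML3, at 122 and 72.1 CPM, as HSPA5 and HSP90B1 were, and P4HB was lowest in KG-1a, at 317 CPM against 1820 CPM in MV4-11. HSP90AA1 was also highest in OCI-AML3, at 593 CPM.

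Processed copies of HSPA5, HSP90B1 and XBP1 elsewhere in the genome held at most 0.27% of the counts of the gene they resemble. For CALR, the related protein-coding gene CALR3 and the pseudogene CALR4P held at most 0.0347% and 0.0107% of its counts. CRELD2 overlaps ALG12 on the opposite strand, which had a mean of 19.8 CPM, so its level has the same uncertainty of strand as that of DNAJB9.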

How the data were processed

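The 10 genes and the gene lists were chosen with earlier results of these data known. The authors deposited an unnormalized table of estimated counts, 1 row per transcript. The submitters' processing notes name the build GRCh38 and the tools STAR, featureCounts, fastp, FastQC and DESeq2, but which of them estimated the counts is not stated there. Libraries were stranded and depleted of ribosomal RNA, per the labels' protocols.

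Of 203027 transcripts, 202941 were matched to GENCODE 29; the others held at most 0.0169% of a library. Counts were summed per gene and rounded. edgeR 4.0.16 (R 4.3.3) removed low genes with filterByExpr (minimum count 10, minimum total 15, cell line as group), which left 15424, scaled by TMM and fitted a robust quasi-likelihood model of cell line and treatment to 12 libraries (6 residual degrees of freedom). The Benjamini-Hochberg adjustment ran over all tested genes, with 0.05 as the threshold. Ratios within a line and correlations used log2 CPM with a prior count of 2. Libraries of a line are paired by that line's label, so the cell line is the block. Leaving the OCI-AML3 and KG-1a libraries with pioglitazone out of the correlations, the lists and the other named genes was added after the data had been seen. Alternatives used limma 3.58.1 and DESeq2 1.42.0. The rule for genes besides the 10 took 16 fixed relatives, the 2 of each list with the smallest p with pioglitazone and between the drugs, the 3 with the smallest p between lines, and the 8 with the highest correlation. Of these the text prints the relatives, the genes for pioglitazone and those by correlation. On simulated data with this design, 83% of 100 genes changed by 1 on the log2 scale with pioglitazone were called, and 99% of 100 changed by 2, over 14582 genes. Another 9 genes, left unchanged, were called too. The changed genes were drawn from those with an average log2 CPM above 2. Their spread followed the trend with abundance, with no spread of single genes and no response particular to a line. The shares may thus be too high for the measured data, and changes below 1 were not simulated. A count of 3, taken as the limit of detection, equals 0.047 CPM in the deepest library and 2.739 CPM in the shallowest, for counting error only.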

Additional observations from a re-analysis of the deposited data

Results flagged for a closer look

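In 1 of 53 sets of 4 single-line values, 1 line stood apart from the other 3 by more than 0.829 of the whole range (Dixon's 95% limit). Chance alone gives about 1 in 20. XBP1 with darglitazone against pioglitazone had a log2 ratio of -0.63 in MV4-11, with a gap of 0.846 of the range. Ratios of darglitazone to DMSO were not examined in this way, since that comparison chose the genes.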

How the results depend on the processing

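None of the 10 genes was called with pioglitazone or between the drugs under any alternative run. Reads of other lines were subtracted from KG-1a with darglitazone and OCI-AML3 with pioglitazone, not from MV4-11 with DMSO. Without the replicate block (cell line left out), the counts of genes called stayed at 0 and HSPA5 with pioglitazone went from -0.10 to 0.02, the only change of direction under that alternative.

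The counts of genes called did change. With pioglitazone edgeR's 0 became 223 without the filter on low counts (93 higher, 130 lower), 10 after thinning to the shallowest library and 56 with DESeq2. With darglitazone it became 76, 1 and 6, and 6 with limma-voom. Between the drugs it became 88, 2 and 12. Leaving out libraries or lines gave 0 to 14, 0 to 3 and 0 to 4. The 1 gene called by line and drug became 0 over protein-coding genes or with a minimum count of 30, 124 without the filter, 11 with limma-voom, 85 without the KG-1a and OCI-AML3 libraries of pioglitazone, 65 with DESeq2 and 0 to 22 with libraries or lines left out. That test could not be fitted without a DMSO library. The 11198 genes called between lines became 7379 after thinning and 8223 to 11647 with libraries or lines left out, and the 9 of the 10 genes became 5 and 7 to 9. After thinning DNAJB9 had too few counts to be tested, and PDIA6, HERPUD1 and CRELD2 missed the threshold. Fewer counts and fewer libraries are part of these alternatives by construction; other causes were not tested.

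Values near 0 changed sign. CRELD2 with darglitazone was -0.05 without the filter and -0.02 both with limma-voom and without the 2 pioglitazone libraries. HERPUD1 with pioglitazone was 0.01 with limma-voom and 0.15 without those libraries, and SDF2L1 between the drugs was -0.01 and -0.15. After thinning, PDIA4 and HERPUD1 with darglitazone were 0.02 and 0.02, and HERPUD1 between the drugs was 0.07. Without those 2 libraries CRELD2 with pioglitazone was 0.01, and PDIA4, CALR and CRELD2 between the drugs were -0.07, -0.10 and -0.03.

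With single libraries or lines left out, CRELD2 with darglitazone ran from -0.14 to 0.11. HERPUD1 ran from -0.26 to 0.08 with pioglitazone, -0.32 to 0.08 with darglitazone and -0.25 to 0.13 between the drugs, and DNAJB9 from -0.12 to 0.60, -0.10 to 0.49 and -0.23 to 0.18. HSPA5 and HSP90B1 with pioglitazone ran from -0.26 to 0.01 and -0.19 to 0.01, and XBP1 from -0.05 to 0.20 with pioglitazone and -0.15 to 0.01 with darglitazone. The median of the 10 genes ran from -0.20 to -0.08, -0.25 to -0.16 and -0.15 to 0.14. Dividing XBP1 counts by transcript length gave a median spliced share of 51.2% in place of 39.4%.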
